A study of Saccharomyces cerevisiae with 4 samples.

Results

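The genes described are those of the cytosolic large ribosomal subunit proteins of budding yeast (Saccharomyces cerevisiae), 81 of the 6720 gene rows in the deposited table. They were taken by name, as every RPL gene with a number and an optional copy letter, plus RPP0, RPP1A, RPP1B, RPP2A and RPP2B, and together they encode 46 proteins, 35 from an A and a B copy and 11 from a single gene. Cells labelled WT, grown at 30 °C, were either calorie-restricted (CR, 0.05% glucose) or non-restricted (NR, 2% glucose) in synthetic complete medium, with 2 biological replicates, A and B, in each condition. Total RNA sequencing gave each gene 1 value per library in FPKM, a fragment count divided by gene length and by the mapped fragments of its library. When and at what density the cells were harvested is not given in the sources used here.

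Large ribosomal subunits hold the peptidyl transferase centre, which is made of RNA and joins amino acids, and the tunnel through which the new protein leaves. Their proteins fold and clamp the ribosomal RNA, form the stalk that recruits elongation factors, and dock the factors that meet the new protein at the tunnel exit. In yeast most of these proteins come from a pair of genes left by an ancient genome duplication. Their transcription depends on Rap1, Fhl1 and the coactivator Ifh1, and it answers to nutrients through the TORC1 and protein kinase A pathways. Making ribosomes takes a large part of the transcription of a growing cell, and nutrient limitation is known to lower it.

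Many members share a promoter feature that their names do not encode. In the window from 450 to 151 bases before the coding start, the letters ACCCNNACA, a core of the Rap1 motif, occurred on either strand in 33 of 81 members, or 40.7%, against 223 of 6000 windows of protein-coding nuclear genes, or 3.72%. Among small subunit protein genes those letters occurred in 14 of 56 windows. Matches at 2 places occurred in 4 members and in 11 of the 6000 windows. These 4 windows are shown because they carry that feature most plainly, each 5′ to 3′ towards the gene, in R64 coordinates, with the matches on either strand in capitals. The first capital base lies 281 and 218 bases before the coding start of RPL13A, 422 and 331 before RPL13B, 414 and 394 before RPL2B, and 284 and 179 before RPL35B.
RPL13A (chrIV:307974-308273, plus strand): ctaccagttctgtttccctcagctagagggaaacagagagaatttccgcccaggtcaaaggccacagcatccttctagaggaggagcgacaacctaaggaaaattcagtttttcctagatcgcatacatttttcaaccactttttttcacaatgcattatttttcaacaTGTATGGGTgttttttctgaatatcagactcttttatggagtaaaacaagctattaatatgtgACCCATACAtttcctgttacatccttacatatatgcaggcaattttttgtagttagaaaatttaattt
RPL13B (chrXIII:551358-551657, minus strand): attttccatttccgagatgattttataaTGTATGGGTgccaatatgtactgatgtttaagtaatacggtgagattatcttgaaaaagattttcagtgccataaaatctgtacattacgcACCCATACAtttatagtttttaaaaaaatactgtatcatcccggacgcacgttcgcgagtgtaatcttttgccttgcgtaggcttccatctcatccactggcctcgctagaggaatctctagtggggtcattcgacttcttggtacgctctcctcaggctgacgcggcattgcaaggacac
RPL2B (chrIX:316318-316617, plus strand): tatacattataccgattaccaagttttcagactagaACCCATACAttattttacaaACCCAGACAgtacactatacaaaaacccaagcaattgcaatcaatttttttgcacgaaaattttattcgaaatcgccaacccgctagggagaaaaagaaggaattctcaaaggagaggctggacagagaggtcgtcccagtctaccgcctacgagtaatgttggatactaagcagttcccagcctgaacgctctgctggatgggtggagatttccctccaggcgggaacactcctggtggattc
RPL35B (chrIV:217150-217449, plus strand): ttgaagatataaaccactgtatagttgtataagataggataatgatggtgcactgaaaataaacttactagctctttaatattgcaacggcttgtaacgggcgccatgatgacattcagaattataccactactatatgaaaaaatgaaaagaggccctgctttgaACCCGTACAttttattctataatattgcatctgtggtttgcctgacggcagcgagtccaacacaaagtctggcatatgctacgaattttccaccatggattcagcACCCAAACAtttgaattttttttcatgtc
GACGCA, a core of the Fhl1 motif, occurred in 14 of 81 member windows (17.3%) and in 7.08% of all windows. TCANNNNNNACG, a core of the Abf1 motif, occurred in 10 of 81 (12.3%) and in 15.3%. Among the 56 small subunit windows the Fhl1 letters occurred in 4 and the Abf1 letters in 10. None of the 37 Rap1 matches in members overlapped a match to either of the other motifs. A match is a description of the letters and was not tested as a binding site.

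Paralog copies differ little, which limits how well short reads can be assigned to a copy. The coding sequences of the 35 pairs were 68.2% to 99.4% identical, with a median of 93.2%. The last 120 coding bases of 5 pairs are shown from nearly identical to clearly different, with the bases that differ between the copies in capitals. The copies of RPL1 had no difference there and 4 over the whole coding sequence. Those of RPL35 had 1 and 3, those of RPL7 5 and 24, those of RPL2 8 and 28, and those of RPL15 13 and 42.
RPL1A (chrXVI:136324-136443, plus strand): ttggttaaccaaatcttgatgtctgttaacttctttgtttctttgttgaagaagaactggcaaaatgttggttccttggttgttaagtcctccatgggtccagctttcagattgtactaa
RPL1B (chrVII:255175-255294, plus strand): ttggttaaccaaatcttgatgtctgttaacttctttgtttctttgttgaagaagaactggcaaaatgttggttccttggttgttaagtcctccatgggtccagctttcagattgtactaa
RPL35A (chrIV:118398-118517, plus strand): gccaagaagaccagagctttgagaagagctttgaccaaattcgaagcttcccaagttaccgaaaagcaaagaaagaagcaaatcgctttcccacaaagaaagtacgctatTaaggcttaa
RPL35B (chrIV:218248-218367, plus strand): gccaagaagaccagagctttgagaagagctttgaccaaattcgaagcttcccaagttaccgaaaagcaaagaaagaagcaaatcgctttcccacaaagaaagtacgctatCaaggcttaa
RPL7A (chrVII:364335-364454, minus strand): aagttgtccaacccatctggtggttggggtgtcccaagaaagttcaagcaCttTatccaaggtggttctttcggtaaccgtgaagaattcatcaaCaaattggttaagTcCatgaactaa
RPL7B (chrXVI:174583-174702, plus strand): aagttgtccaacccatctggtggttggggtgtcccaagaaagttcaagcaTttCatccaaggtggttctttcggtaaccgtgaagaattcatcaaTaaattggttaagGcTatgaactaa
RPL2A (chrVI:220507-220626, minus strand): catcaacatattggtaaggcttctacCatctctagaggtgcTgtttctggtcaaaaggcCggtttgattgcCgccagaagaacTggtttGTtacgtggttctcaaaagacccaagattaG
RPL2B (chrIX:317813-317932, plus strand): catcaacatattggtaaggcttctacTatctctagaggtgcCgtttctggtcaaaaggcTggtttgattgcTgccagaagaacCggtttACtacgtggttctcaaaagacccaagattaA
RPL15A (chrXII:201976-202095, minus strand): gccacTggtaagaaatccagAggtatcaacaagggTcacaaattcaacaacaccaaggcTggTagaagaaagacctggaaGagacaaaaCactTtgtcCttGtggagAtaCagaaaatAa
RPL15B (chrXIII:509734-509853, minus strand): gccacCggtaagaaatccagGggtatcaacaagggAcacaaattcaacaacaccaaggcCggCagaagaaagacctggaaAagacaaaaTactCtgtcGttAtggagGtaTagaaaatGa
The identical RPL1 ends and the RPL15 ends frame the results on copies below. A read from the RPL1 stretch fits both genes equally, whereas the RPL15 stretch has a difference at 13 places.

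Before the results, 3 features of the rows and libraries apply. The rows of RPL24A, RPL24B, RPL29 and RPL32 lay wholly upstream of the coding sequence, ending 7, 7, 3 and 0 bases before its start, and did not touch it, so their values do not measure the coding region. Another row of the table overlapped 16 members, 15 of those rows being absent from RefSeq, and without a stated use of strand the reads of 2 overlapping rows cannot be told apart. In CR B, rows without a gene ID held 87.2% of all FPKM, against 27.4% in CR A, 34.0% in NR A and 29.9% in NR B. The median gene row was at 57.6 and 52.8 FPKM in CR libraries A and B, and at 52.6 and 48.6 FPKM in NR libraries A and B. Since CR B stands apart, values are given for each CR library.

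Large subunit protein genes were lower in CR, and more so in CR B than in CR A. Of 81 members, all of which passed the filter on low values, 15 fell and 0 rose. Over all 6355 rows tested 13.2% were called lower and 17.7% higher. The median log2 fold of the members was -1.04, beside 0.06 for all rows, and 79 members had a negative fold. Against the NR mean, the median member was lower by 0.46 on the log2 scale in library A of CR and by 1.42 in library B, where the median of all rows was 0.10 and 0.01. CR B was below CR A for 76 members, and the 5 exceptions were RPL24A, RPL29, RPL32, RPL35A and RPL41A. The rows of RPL24A, RPL29 and RPL32 lie upstream of the coding sequence. Only 14.6% of the stretches of 32 bases in RPL35A and 19.1% of those in RPL41A occur once in the genome. The share of rows without a gene ID moved with the difference between CR A and CR B, and its part in the result was not tested.

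Two-sided p-values came from limma, fitted to log2(FPKM + 1), and were adjusted by Benjamini-Hochberg over the 6355 rows at 0.05. All log2 folds below are CR minus NR on that scale, which shrinks the change of genes with few FPKM. At an unadjusted p under 0.05, 38 members were lower and 0 higher, beside 20.5% of all rows lower. Both CR libraries lay below both NR libraries for 66 members, against 33.8% of all rows. The number of calls rested on single libraries. It was 76 lower without CR A, 30 lower and 1 higher without CR B, 0 without NR A and 1, RPL24A, without NR B, where the spread came from the CR pair alone and the lone NR library is assumed to vary like it. Without either CR library the spread came from the NR pair alone, which varied less, so those counts do not measure stability. Without NR A and without NR B 10 members each were lower at an unadjusted p under 0.05. Scaling all libraries to a common median, which put the median fold of all rows at -0.06 in place of 0.06, gave 30 lower members. With no filter on low values 6 of the 15 passed, RPL7B, RPL10, RPL18B, RPL24A, RPL24B and RPL32. The rows of RPL24A, RPL24B and RPL32 do not measure the coding region. The cultures were measured in bulk, so fewer expressing cells and less RNA per cell cannot be told apart.

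**Figure D1:**
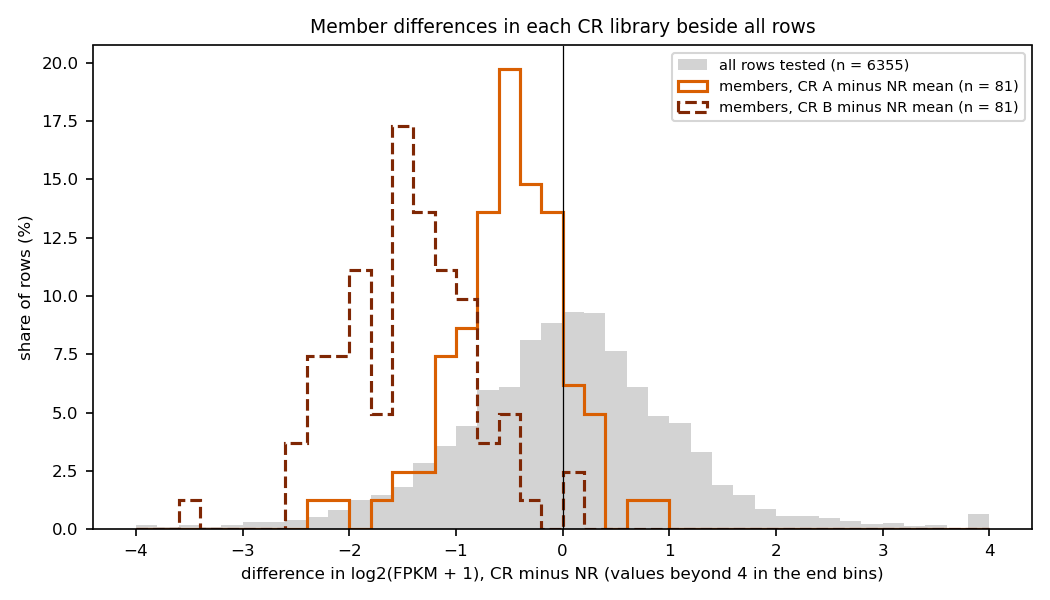
The x axis shows the difference in log2(FPKM + 1), CR minus NR, and the y axis the share of rows in percent. Grey bars are the fitted folds of all 6355 rows tested, and the lines are the 81 members in CR A (solid) and CR B (dashed) against the NR mean. The CR A line has its median at -0.46 and the CR B line at -1.42.

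As a share of the summed FPKM of gene rows, the members made up 13.0% and 7.99% in CR libraries A and B, against 17.7% and 19.7% in NR libraries A and B. The groups did not overlap, with 10.5 ± 3.57% in CR and 18.7 ± 1.36% in NR (mean ± SD, n = 2 each). The exact two-sided permutation p was 0.33, the smallest that 4 libraries allow. More than any others, RPL39, RPL41A and RPL41B set this sum, with 57.3% and 56.3% of the member FPKM in CR A and B, and 57.5% and 63.7% in NR A and B. Without them the members held 5.57% and 3.49% in CR A and B, against 7.55% and 7.15% in NR A and B. These 3 genes have coding sequences of 156, 78 and 78 bases, the shortest of the members. Over the 77 members with a row at their R64 position, Spearman's rho between the NR mean and the coding length was -0.44. That is a description across genes of the same libraries, and how FPKM was formed for such short genes is not given in the sources used here.

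Among the stalk genes none was called, 2 of 7 had an unadjusted p under 0.05, and all 7 had both CR libraries below both NR libraries. Of all rows 20.5% were lower at that unadjusted p, and 33.8% had both CR libraries below both NR libraries. RPP0 encodes the protein that ties the stalk to the ribosomal RNA, and the RPP1 and RPP2 genes encode the acidic proteins that make up the stalk and help recruit elongation factors. RPP0 was at 1600.1 and 812 FPKM in CR libraries A and B, against 1758 and 1751 FPKM in NR libraries A and B (log2 fold -0.62, SE 0.38, adjusted p = 0.26). Its NR libraries were close together and CR A was nearer to them than CR B. RPP2A had the smallest fold of the stalk genes, at 6747 and 5441 FPKM in CR libraries A and B, against 7922 and 7369.7 FPKM in NR libraries A and B (log2 fold -0.33, SE 0.33, adjusted p = 0.46). RPP2B was at 5816 and 4180.2 FPKM in CR libraries A and B, against 8172 and 7804 FPKM in NR libraries A and B (log2 fold -0.70, adjusted p = 0.17). These genes held the highest levels of the stalk in every library. Of the RPP1 pair, RPP1A was at 2485 and 1314 FPKM in CR libraries A and B, against 3013 and 2961 FPKM in NR libraries A and B (log2 fold -0.72, adjusted p = 0.2). RPP1B, whose coding sequence is split by an intron, was at 2629 and 919.7 FPKM in CR libraries A and B, against 4541 and 4124 FPKM in NR libraries A and B (log2 fold -1.48, SE 0.54, adjusted p = 0.091). Of the stalk genes RPP1B lay farthest below NR in CR B. The RPL12 genes encode the protein at the stalk base. RPL12A was at 629 FPKM in CR A, 209 in CR B, 900.3 in NR A and 911 in NR B (log2 fold -1.32, adjusted p = 0.12). RPL12B was at 1152 FPKM in CR A, 407 in CR B, 1751 in NR A and 1717 in NR B (log2 fold -1.34, adjusted p = 0.1). Both copies were lower mainly in CR B. The row of each, like that of RPP0, overlaps another row, and the one beside RPL12A, YEL053W-A, was itself at 149 and 988 FPKM in CR A and B, against 190.1 and 172 in NR A and B.

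RPL5 and RPL11 bring 5S ribosomal RNA into the subunit. RPL5, a single gene, was at 1789.8 and 1103 FPKM in CR libraries A and B, against 2202 and 1735 FPKM in NR libraries A and B (log2 fold -0.48, SE 0.34, adjusted p = 0.32). CR A lay between the NR libraries, so its groups overlapped. RPL11A was at 118 and 90.0 FPKM in CR libraries A and B, against 143 and 167 FPKM in NR libraries A and B (log2 fold -0.58, adjusted p = 0.12), and RPL11B at 42.6 and 18.8 FPKM in CR libraries A and B, against 80.4 and 59.0 FPKM in NR libraries A and B (log2 fold -1.25, adjusted p = 0.075). Both copies had CR below NR and neither passed. Only 34.0% of the stretches of 32 bases in either occur once in the genome, so which copy a read came from is often uncertain.

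Near the peptidyl transferase centre and the tRNA sites, 1 of 6 genes fell, beside 13.2% of all rows. RPL10, whose protein joins late and is needed for the subunit to become active, was at 1781 and 1699.8 FPKM in CR libraries A and B, against 3879.8 and 5042 FPKM in NR libraries A and B (log2 fold -1.35, SE 0.29, adjusted p = 0.025; chromosome XII, 282927 to 283592, plus strand). Its row overlaps that of YLR076C, absent from RefSeq. YLR076C was at 94.0 and 21.8 FPKM in CR libraries A and B, against 230 and 267 FPKM in NR libraries A and B. The CR libraries of RPL10 were alike and lay 2.56 times below NR by the means. RPL3, which encodes a protein that reaches towards the catalytic centre, was at 3765 and 3391 FPKM in CR libraries A and B, against 7433 and 6375 FPKM in NR libraries A and B (log2 fold -0.95, SE 0.30, adjusted p = 0.068), likewise with CR libraries close together. RPL42 encodes a protein at the tRNA exit site. RPL42A was at 141 and 47.4 FPKM in CR libraries A and B, against 227 and 204 FPKM in NR libraries A and B (log2 fold -1.38, adjusted p = 0.097). RPL42B was at 281 FPKM in CR A, 154 in CR B, 416 in NR A and 406 in NR B (log2 fold -0.98, adjusted p = 0.077). Both copies had CR below NR. The RPL2 copies, which encode a conserved protein beside the catalytic centre, changed in their ratio and are given with the pairs.

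In the list for the exit tunnel 2 of 14 genes fell, RPL19A and RPL31B, a share near the 13.2% of all rows. RPL39, which encodes a very small protein in the tunnel wall, had the highest level of any member, at 95839 and 49472 FPKM in CR libraries A and B, against 117439 and 112741 FPKM in NR libraries A and B (log2 fold -0.74, SE 0.58, adjusted p = 0.36). CR A was close to NR and CR B less than NR by more than 2-fold, and the row overlaps that of BUD19, which is absent from RefSeq. RPL25, whose protein docks factors at the tunnel exit, was at 2342 and 787 FPKM in CR libraries A and B, against 3114 and 3249 FPKM in NR libraries A and B (log2 fold -1.23, adjusted p = 0.14), with the lower value in CR B. RPL19A, which encodes a protein reaching across to the small subunit, was at 1060.0 and 659.9 FPKM in CR libraries A and B, against 2091 and 1782 FPKM in NR libraries A and B (log2 fold -1.21, SE 0.32, adjusted p = 0.044). Its partner RPL19B was at 1804 and 996 FPKM in CR libraries A and B, against 2508 and 2589 FPKM in NR libraries A and B (log2 fold -0.93, adjusted p = 0.11). For RPL17, whose protein lines the tunnel, RPL17A was at 788 and 474 FPKM in CR libraries A and B, against 879 and 804 FPKM in NR libraries A and B (log2 fold -0.46, adjusted p = 0.31). RPL17B was at 263 FPKM in CR A, 102 in CR B, 405 in NR A and 396 in NR B (log2 fold -1.29, adjusted p = 0.089). The B copy was the lower one in each library.

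Of 7 genes for late-joining, bridge and ubiquitin-fusion proteins 3 fell, of which RPL24A and RPL24B are measured only upstream of the coding sequence. Over all rows the share called lower was 13.2%. RPL24A was at 20.1 and 20.2 FPKM in CR libraries A and B, against 107 and 67.0 FPKM in NR libraries A and B (log2 fold -2.02, SE 0.28, adjusted p = 0.0097), and RPL24B at 207 and 196 FPKM in CR libraries A and B, against 483 and 465 FPKM in NR libraries A and B (log2 fold -1.23, SE 0.20, adjusted p = 0.014). In both rows the CR libraries were close together and below NR. The row of RPL29 was at 16.8 and 43.1 FPKM in CR libraries A and B, against 47.6 and 38.4 FPKM in NR libraries A and B (log2 fold -0.64, adjusted p = 0.31), with CR B inside the NR range. RPL41A, for a very small protein at the subunit bridge, was at 9163 and 9482 FPKM in CR libraries A and B, against 20767 and 28741 FPKM in NR libraries A and B (log2 fold -1.39, SE 0.39, adjusted p = 0.047). RPL41B was at 26332 and 11162 FPKM in CR libraries A and B, against 37501 and 84581 FPKM in NR libraries A and B (log2 fold -1.72, adjusted p = 0.11), and its NR libraries differed by more than 2-fold. RPL40 genes encode ubiquitin joined to a ribosomal protein that is cut free. RPL40A was at 2232 and 1551 FPKM in CR libraries A and B, against 4024 and 3770.2 FPKM in NR libraries A and B (log2 fold -1.07, adjusted p = 0.053) and RPL40B at 1125 and 443 FPKM in CR libraries A and B, against 2110.1 and 2423 FPKM in NR libraries A and B (log2 fold -1.68, adjusted p = 0.051), just short of the threshold.

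The other 44 genes had 9 lower, beside 13.2% of all rows, and a median log2 fold of -1.05, from -2.93 to 0.14. RPL30, whose protein represses the splicing of its own transcript, was at 2569.5 and 1839 FPKM in CR libraries A and B, against 5605 and 5949 FPKM in NR libraries A and B (log2 fold -1.41, SE 0.32, adjusted p = 0.028; chromosome VII, 439091 to 439638, plus strand). Both CR libraries were under 50% of either NR library. RPL28, one of the highest single-copy genes, was at 4947 and 2304 FPKM in CR libraries A and B, against 6353 and 7606 FPKM in NR libraries A and B (log2 fold -1.04, adjusted p = 0.14). RPL32 was at 80.1 and 104 FPKM in CR libraries A and B, against 235 and 216 FPKM in NR libraries A and B (log2 fold -1.30, SE 0.22, adjusted p = 0.016) in a row that ends where the coding sequence starts. RPL13A was at 309 and 184 FPKM in CR libraries A and B, against 773 and 653 FPKM in NR libraries A and B (log2 fold -1.57, SE 0.32, adjusted p = 0.022), and RPL20B at 222 and 147 FPKM in CR libraries A and B, against 418 and 415 FPKM in NR libraries A and B (log2 fold -1.20, SE 0.27, adjusted p = 0.028). RPL14B was at 79.8 and 52.4 FPKM in CR libraries A and B, against 156 and 138 FPKM in NR libraries A and B (log2 fold -1.17, SE 0.27, adjusted p = 0.029). All 3 had CR libraries below NR by clear gaps. RPL13A carries a pair of the Rap1 letters shown above, as do RPL13B, RPL2B and RPL35B, which were not called. A link between these letters and the folds was not tested.

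Only RPL38 and RPL35A had a positive fold, and neither passed. RPL38 was at 2911 and 1090.0 FPKM in CR libraries A and B, against 1638 and 1600.0 FPKM in NR libraries A and B (log2 fold 0.14, SE 0.50, adjusted p = 0.85; chromosome XII, 781143 to 781379, minus strand). CR A was above and CR B below both NR libraries. The log2 fold was 0.85 without CR B and -0.57 without CR A, and both passed, but each sets a single CR library against the close NR pair, which alone gave the spread. RPL35A was at 94.4 and 101 FPKM in CR libraries A and B, against 88.4 and 92.3 FPKM in NR libraries A and B (log2 fold 0.11, SE 0.19, adjusted p = 0.67), the single member with both CR libraries above NR, and its fold turned negative under both scalings. CR A was above both NR libraries for 8 members, RPL2A, RPL6A, RPL22A, RPL31A, RPL33A, RPL35A, RPL36B and RPL38, while CR B was below both for 79 of 81.

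**Figure D2:**
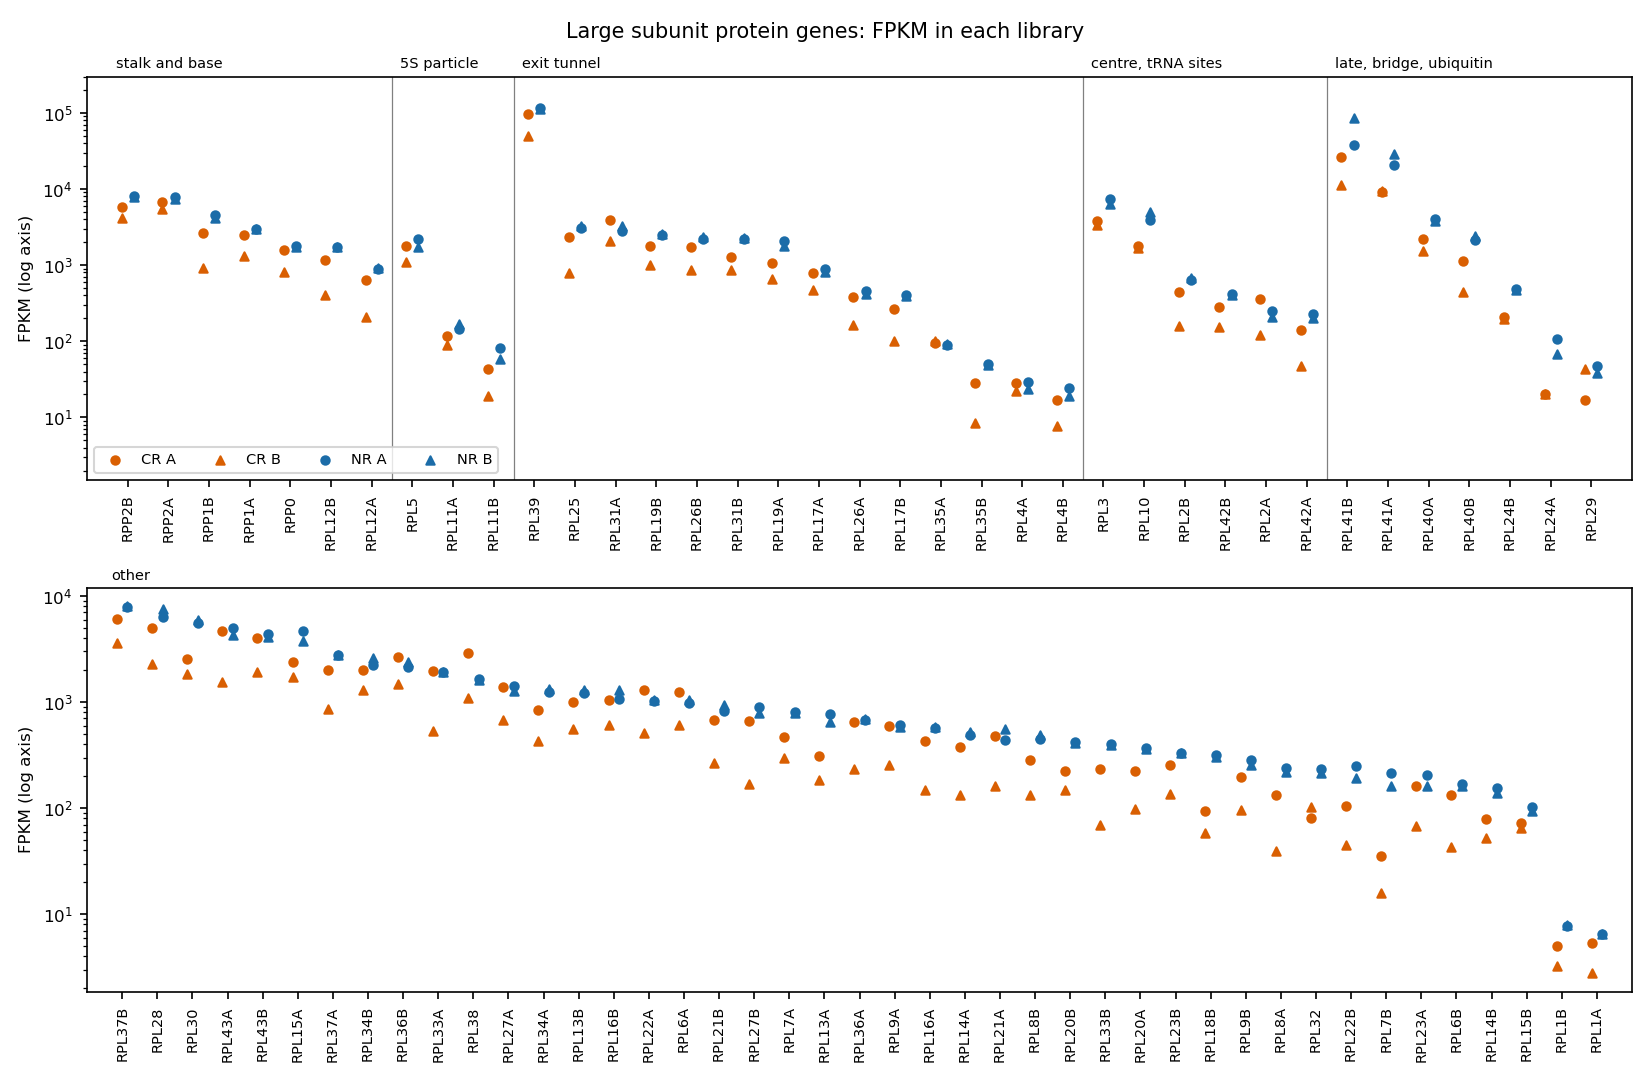
FPKM of 80 members on a log axis, grouped by role from the stalk to the other genes and ordered by NR mean within each role. Orange marks are CR and blue marks NR, with circles for replicate A and triangles for replicate B. For 65 of these 80 members both orange marks lie below both blue marks, and CR B is below CR A for 75.

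By gene structure, among members at their R64 position, 53 genes with a split coding sequence had 10 lower and a median log2 fold of -1.06, and 24 with a single coding exon had 2 lower and a median of -0.83. In CR A the medians were -0.44 and -0.46, and in CR B -1.55 and -1.20. The difference between these groups was not tested. Over all rows tested 13.2% were lower.

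In 22 of the 35 pairs the A copy had the higher log2 fold of the pair. Of the 35 B copies 7 fell and 34 had both CR libraries below both NR libraries, with a median log2 fold of -1.11. Of the 35 A copies 5 fell and 24 had both CR libraries below, with a median of -0.84. Over all rows 13.2% fell and 33.8% had both CR libraries below. The difference between A and B copies as groups was not tested. The ratio of A to B was tested for each pair in limma and adjusted over 61 pairs. These are the pairs whose symbols consist of letters and a number and end in A and B. Of the 35 member pairs 6 changed, and in each the A copy gained on the B copy in CR. The 5 described here are RPL7, RPL35, RPL22, RPL2 and RPL31. Over the 61 pairs, which include the 35 member pairs, 11 or 18.0% were called, so the share among member pairs was not higher. Most of the other pairs are of small subunit protein genes, so 18.0% is not a share for paralogs in general. At an unadjusted p under 0.05, 12 ratios moved towards A and 2 towards B, RPL13 and RPL24. CR and NR ratios did not overlap for 26 of the 35 pairs, 17 towards A and 9 towards B, beside 67.2% of the 61 pairs. The A or B letter has no shared meaning between pairs, as it names copies only by convention.

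Apart from that of RPL7, the pair calls were close to the threshold. With a pseudocount of 5 only RPL7 passed, with one of 0.1 RPL7, RPL22 and RPL2, and after quantile normalization RPL7 and RPL22. No member pair passed without NR A or without NR B, with 3 at an unadjusted p under 0.05 in each. Without CR A 21 pairs passed and without CR B 7, but there 1 CR library was set against the NR pair, which alone gave the spread. In a fit limited to rows at their R64 position, with 50% or more unique stretches and no overlap, 0 of 18 member pairs passed in limma and 7 had an unadjusted p under 0.05.

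RPL7 encodes a protein on the outer face of the subunit. RPL7A was at 465 and 295 FPKM in CR libraries A and B, against 807 and 782 FPKM in NR libraries A and B (log2 fold -1.10, SE 0.29, adjusted p = 0.043). RPL7B had the largest fall of any member, at 35.1 and 15.7 FPKM in CR libraries A and B, against 216 and 161 FPKM in NR libraries A and B (log2 fold -2.93, SE 0.41, adjusted p = 0.01; chromosome XVI, 173152 to 174702, plus strand). The FPKM of RPL7A over RPL7B was 13.2 and 18.8 in CR A and B, against 3.74 and 4.85 in NR A and B (change of the log2 ratio 1.83, SE 0.32, adjusted p = 0.0083). Only 31.4% of the 32-nt stretches of either copy occur once in the genome. The row of RPL7B also overlaps that of YPL197C, absent from RefSeq, which stood at 28.4 and 18.5 FPKM in CR A and B against 142 and 109 in NR A and B.

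RPL22 encodes a protein that is not essential in yeast, and that acts on the splicing of the transcript of RPL22B. RPL22A was at 1303 and 510.3 FPKM in CR libraries A and B, against 1016 and 1038 FPKM in NR libraries A and B (log2 fold -0.33, adjusted p = 0.61). RPL22B was at 104 and 44.7 FPKM in CR libraries A and B, against 252 and 191 FPKM in NR libraries A and B (log2 fold -1.67, SE 0.43, adjusted p = 0.04; chromosome VI, 64243 to 64932, minus strand). CR A of RPL22A was above NR and CR B below it, whereas both CR libraries of RPL22B were lower. The A to B ratio was 12.5 and 11.4 in CR A and B, against 4.03 and 5.43 in NR A and B (change of the log2 ratio 1.34, SE 0.31, adjusted p = 0.037). All 32-nt stretches of both copies are unique, and the row of RPL22A overlaps that of BUD28. Whether that length fits the reads is unknown, since their length is not given in the sources used here.

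RPL18B was at 93.7 and 58.0 FPKM in CR libraries A and B, against 317 and 305 FPKM in NR libraries A and B (log2 fold -2.06, SE 0.28, adjusted p = 0.0097; chromosome XIV, 63570 to 64562, minus strand). Its CR libraries were both far below NR. Its fall was the second largest of the members, and CR was 4.10 times below NR by the means. Of its 32-nt stretches 70.5% are unique.

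RPL31, whose protein sits at the tunnel exit, had RPL31A at 3964 and 2091 FPKM in CR libraries A and B, against 2826 and 3226 FPKM in NR libraries A and B (log2 fold -0.07, adjusted p = 0.9). RPL31B was at 1265 and 851 FPKM in CR libraries A and B, against 2188 and 2267 FPKM in NR libraries A and B (log2 fold -1.10, SE 0.30, adjusted p = 0.045; chromosome XII, 931065 to 931755, minus strand). RPL31A overlapped between the groups and RPL31B did not. The A to B ratio was 3.13 and 2.46 in CR A and B, against 1.29 and 1.42 in NR A and B (change of the log2 ratio 1.03, SE 0.30, adjusted p = 0.049), with all stretches unique.

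In the RPL2 pair B was the higher copy. RPL2A was at 355 and 122 FPKM in CR libraries A and B, against 251 and 207 FPKM in NR libraries A and B (log2 fold -0.13, adjusted p = 0.86; chromosome VI, 220507 to 221418, minus strand). RPL2B was at 439 and 159 FPKM in CR libraries A and B, against 639 and 685 FPKM in NR libraries A and B (log2 fold -1.32, adjusted p = 0.098; chromosome IX, 316768 to 317932, plus strand). Neither copy passed alone, while the ratio of B to A was 1.24 and 1.30 in CR A and B, against 2.55 and 3.31 in NR A and B (change of the log2 ratio 1.19, SE 0.30, adjusted p = 0.048, as A over B). Both copies had lower values in CR B than in CR A, yet the ratio was alike in these libraries. Of the 32-nt stretches 61.9% are unique.

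RPL35 encodes another protein of the tunnel exit. RPL35B was at 27.8 and 8.54 FPKM in CR libraries A and B, against 49.7 and 48.7 FPKM in NR libraries A and B (log2 fold -1.60, adjusted p = 0.072), against the slightly higher CR values of RPL35A above. The A to B ratio was 3.39 and 11.8 in CR A and B, against 1.78 and 1.90 in NR A and B (change of the log2 ratio 1.71, SE 0.49, adjusted p = 0.049). CR A and CR B differed more here than for any other called member pair, and with 3 differing bases and 14.6% unique stretches the assignment to a copy is uncertain.

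**Figure D3:**
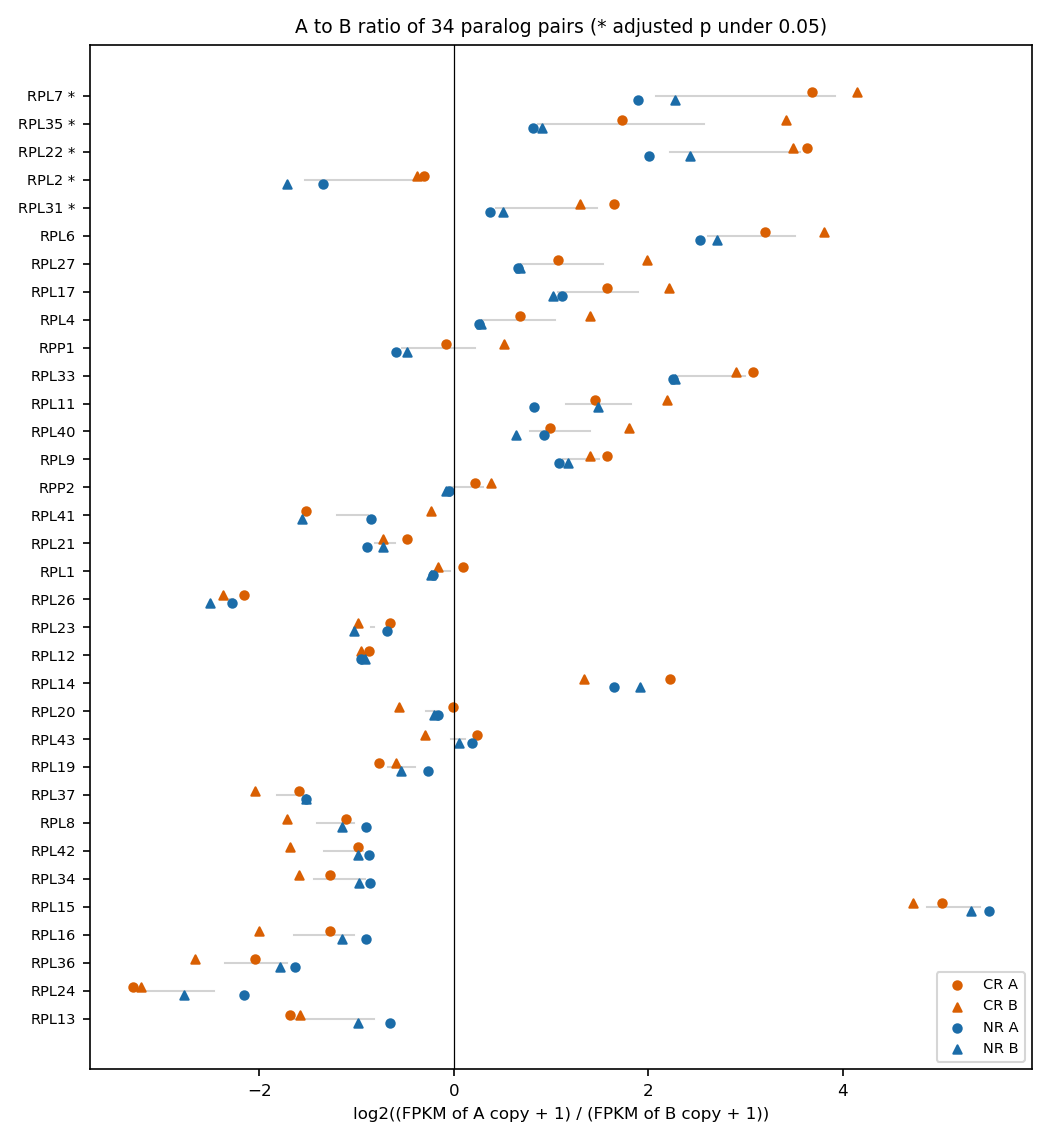
The x axis shows log2 of the A copy over the B copy, each as FPKM + 1, for 34 pairs, ordered by the change between conditions. Orange marks are CR, blue marks NR, circles replicate A and triangles replicate B, and grey lines join the group means. For the 5 starred pairs, RPL7, RPL35, RPL22, RPL2 and RPL31, the orange marks lie to the right of the blue ones.

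The higher copy of a pair was mostly the same in both conditions. By the mean ratio, A was higher in 17 pairs in CR and in 16 in NR, and 31 pairs had the same higher copy in all 4 libraries. The exceptions were RPL1, RPL43, RPP1 and RPP2. By the mean ratio the higher copy switched between NR and CR in 3 pairs, RPL43, RPP1 and RPP2. The A to B ratio of RPP1 was 0.95 and 1.43 in CR A and B, against 0.66 and 0.72 in NR A and B. That of RPP2 was 1.16 and 1.30 in CR A and B, against 0.97 and 0.94 in NR A and B. In limma the change of the log2 ratio was 0.75 for RPP1 (adjusted p = 0.12) and 0.36 for RPP2 (adjusted p = 0.42). The copy that was lower in NR had the more negative fold in 23 of 35 pairs. The median absolute log2 ratio was 1.49 in CR and 1.03 in NR, and 24 pairs in CR and 18 in NR had copies that differed by more than 1 on the log2 scale.

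Among pairs at their R64 position with 50% or more unique stretches, the widest gaps in NR were those of RPL15, RPL6, RPL26 and RPL33. RPL15A was at 2364 and 1733 FPKM in CR libraries A and B, against 4680.1 and 3793 FPKM in NR libraries A and B (log2 fold -1.06, adjusted p = 0.056), and RPL15B at 71.9 and 64.5 FPKM in CR libraries A and B, against 102 and 93.7 FPKM in NR libraries A and B (log2 fold -0.51, adjusted p = 0.1). Their ratio was 32.9 and 26.9 in CR A and B, against 46.0 and 40.5 in NR A and B (change of the log2 ratio -0.54, SE 0.30, adjusted p = 0.23), so A led in every library. Of their 32-nt stretches 79.8% are unique. RPL6A, for a protein of the outer surface, was at 1232 and 610.5 FPKM in CR libraries A and B, against 978 and 1054 FPKM in NR libraries A and B. RPL6B was at 133 FPKM in CR A, 42.6 in CR B, 168 in NR A and 161 in NR B (change of the log2 ratio 0.89, SE 0.33, adjusted p = 0.1). CR A of RPL6A was above both NR libraries, whereas both CR libraries of RPL6B were below them. RPL33A was at 1977 and 528 FPKM in CR libraries A and B, against 1932 and 1921 FPKM in NR libraries A and B. RPL33B was at 232 FPKM in CR A, 69.5 in CR B, 403 in NR A and 395 in NR B (change of the log2 ratio 0.73, SE 0.29, adjusted p = 0.12). In CR B both copies were far below NR, and in CR A the B copy alone was. In RPL26 B led, with RPL26A at 385 and 163 FPKM in CR libraries A and B, against 460.1 and 415 FPKM in NR libraries A and B. RPL26B was at 1723 FPKM in CR A, 851 in CR B, 2236 in NR A and 2364 in NR B (change of the log2 ratio 0.12, SE 0.30, adjusted p = 0.79). The RPL26 ratio overlapped between CR and NR, whereas those of RPL6 and RPL33 did not.

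Some pairs had close ratios in both conditions. The B to A ratio of RPL12 was 1.83 and 1.95 in CR A and B, against 1.94 and 1.88 in NR A and B (change of the log2 ratio 0.02, SE 0.29, adjusted p = 0.96), and that of RPL23 1.58 and 1.99 in CR A and B, against 1.61 and 2.05 in NR A and B (change of the log2 ratio 0.04, SE 0.31, adjusted p = 0.94). These ratios differed between conditions by less than the spread between replicates. In RPL13 the ratio lay further towards B in CR. RPL13B was at 999 FPKM in CR A, 556 in CR B, 1219 in NR A and 1291 in NR B (log2 fold -0.75, adjusted p = 0.15), and its ratio to RPL13A was 3.23 and 3.02 in CR A and B, against 1.58 and 1.98 in NR A and B (change of the log2 ratio -0.82, SE 0.30, adjusted p = 0.1). CR and NR ratios did not overlap. RPL36B was at 2676 FPKM in CR A, 1478 in CR B, 2120.5 in NR A and 2395 in NR B (log2 fold -0.18, adjusted p = 0.73), and its ratio to RPL36A was 4.12 and 6.34 in CR A and B, against 3.11 and 3.47 in NR A and B (change of the log2 ratio -0.64, SE 0.33, adjusted p = 0.21).

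RPL37B had the highest level of the other genes, at 6112 and 3572 FPKM in CR libraries A and B, against 7951 and 7977 FPKM in NR libraries A and B (log2 fold -0.77, adjusted p = 0.18), and its partner RPL37A was at 2019.5 FPKM in CR A, 865 in CR B, 2776 in NR A and 2785 in NR B (log2 fold -1.07, adjusted p = 0.13). RPL43A was at 4688 and 1559.6 FPKM in CR libraries A and B, against 5025 and 4278 FPKM in NR libraries A and B (log2 fold -0.78, adjusted p = 0.33), and RPL43B at 3985 FPKM in CR A, 1916 in CR B, 4426 in NR A and 4109 in NR B (log2 fold -0.63, adjusted p = 0.3). In these 4 genes CR B was well below NR and CR A closer to it. RPL27A was at 1382 and 681 FPKM in CR libraries A and B, against 1427 and 1271 FPKM in NR libraries A and B (log2 fold -0.47, adjusted p = 0.39). RPL27B was at 658 FPKM in CR A, 171 in CR B, 901 in NR A and 792 in NR B (log2 fold -1.33, adjusted p = 0.16). The A to B ratio of RPL27 was 2.10 and 3.99 in CR A and B, against 1.58 and 1.60 in NR A and B (change of the log2 ratio 0.86, SE 0.36, adjusted p = 0.12). Both CR ratios lay above both NR ratios. RPL16A was at 429 and 149 FPKM in CR libraries A and B, against 567 and 580.4 FPKM in NR libraries A and B (log2 fold -1.18, adjusted p = 0.13), and RPL16B at 1038 FPKM in CR A, 604 in CR B, 1060.3 in NR A and 1291 in NR B (log2 fold -0.56, adjusted p = 0.25). RPL8A was at 133 and 39.5 FPKM in CR libraries A and B, against 241 and 218 FPKM in NR libraries A and B (log2 fold -1.65, adjusted p = 0.079), and RPL8B at 287 FPKM in CR A, 132 in CR B, 452 in NR A and 487 in NR B (log2 fold -1.26, adjusted p = 0.065). In both of these pairs B was the higher copy in every library. The row of RPL8B overlaps that of YLL044W, absent from RefSeq. YLL044W was at 756 and 1606 FPKM in CR libraries A and B, against 1129 and 1019.7 FPKM in NR libraries A and B. RPL34B over RPL34A was 2.42 and 3.03 in CR A and B, against 1.82 and 1.97 in NR A and B (change of the log2 ratio -0.52, SE 0.30, adjusted p = 0.24). RPL20A, the partner of RPL20B, was at 222 FPKM in CR A, 99.2 in CR B, 372 in NR A and 361 in NR B (log2 fold -1.30, adjusted p = 0.063).

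Near-identical copies had low values. In 16 members, the 8 pairs RPL1, RPL4, RPL7, RPL11, RPL14, RPL35, RPL41 and RPL42, less than 50% of the 32-nt stretches of the coding exons occur once in the genome. Their median level was 80.1 FPKM in CR and 151.2 in NR. The 54 copies of the other pairs had medians of 618 in CR and 961 in NR, and the 11 single-copy genes 1741 in CR and 3181 in NR. Across the 35 pairs, Spearman's rho between the unique share and the summed NR level was 0.50, as a description over genes of the same libraries. The lowest pair was RPL1, with 12.7% unique, with RPL1A at 5.35 FPKM in CR A, 2.78 in CR B, 6.57 in NR A and 6.53 in NR B. RPL1B was at 4.97 FPKM in CR A, 3.23 in CR B, 7.76 in NR A and 7.85 in NR B. RPL4, with 19.1% unique, had RPL4A at 28.1 and 22.2 FPKM in CR libraries A and B, against 29.5 and 23.4 FPKM in NR libraries A and B. RPL4B was at 17.1 FPKM in CR A, 7.75 in CR B, 24.5 in NR A and 19.1 in NR B. The values of both pairs lie far under those of RPL3, RPL5 or RPL10. RPL41, also with 19.1% unique stretches, went the other way, with values among the highest of all members. Levels and ratios of these 8 pairs are therefore uncertain, and how reads with several matches were counted is not given in the sources used here. Of the 65 members with 50% or more unique stretches 14 fell when the fit used only such rows, with a median log2 fold of -0.97.

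**Figure D4:**
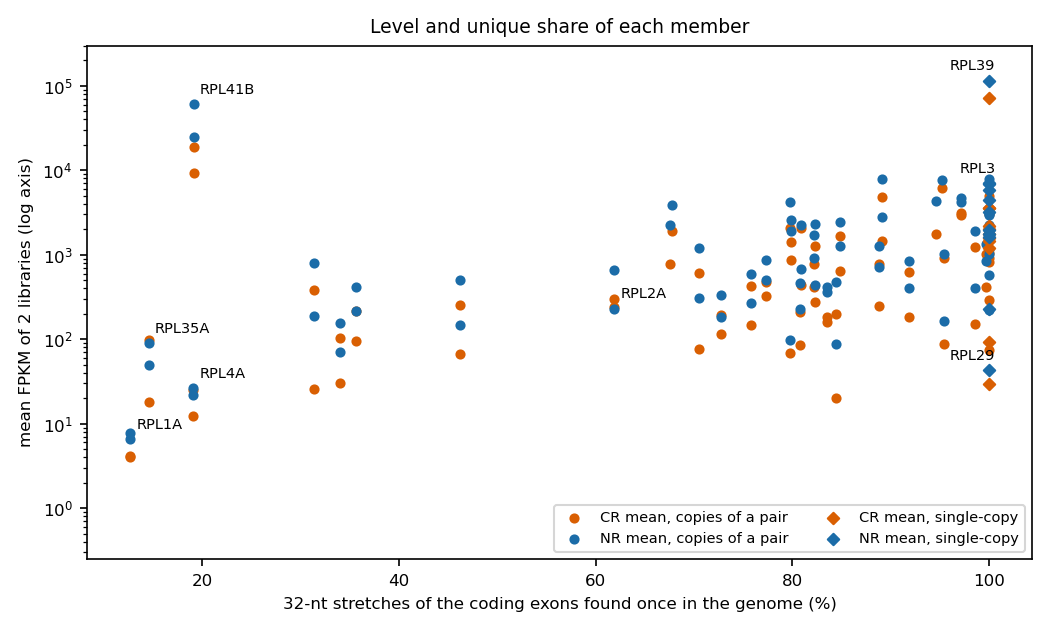
The x axis shows the percentage of 32-nt stretches of the coding exons found once in the genome, and the y axis the mean FPKM of 2 libraries on a log axis. Orange is CR and blue NR, with circles for copies of a pair and diamonds for single-copy genes. RPL1 lies lowest on the left, and RPL41 on the left and RPL39 on the right lie highest.

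Small subunit protein genes are the nearest comparable group. Of 56 RPS genes 11 fell and 0 rose, 24 having an unadjusted p under 0.05, with a median log2 fold of -0.90, -0.48 in CR A and -1.32 in CR B. Of these rows 9 lay away from their R64 gene, and among the other 47 the count was 5 and the median -0.87. The 77 members at their R64 position had 12 lower and a median of -0.98. The difference between the subunits was not tested, and over all rows tested 13.2% were lower. The median log2 level of members minus that of RPS genes was 0.15 and -0.06 in CR A and B, and 0.21 and 0.15 in NR A and B.

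Among 12 regulators of ribosomal protein genes 1 fell and 1 rose, beside 13.2% lower and 17.7% higher of all rows. The others were not called, and a link between the regulators and the members was not tested. IFH1, the coactivator that binds Fhl1 at these promoters, was at 43.2 and 36.2 FPKM in CR libraries A and B, against 325 and 280.4 FPKM in NR libraries A and B (log2 fold -2.90, SE 0.21, adjusted p = 0.0027). CRF1, its paralog and a corepressor that can bind Fhl1 in its place, was at 158 and 103 FPKM in CR libraries A and B, against 18.8 and 16.5 FPKM in NR libraries A and B (log2 fold 2.79, SE 0.27, adjusted p = 0.0048). Neither gene overlapped between the groups, and CR A and CR B were alike for IFH1. The row of IFH1 overlaps that of YLR222C-A, and without a stated use of strand their reads cannot be told apart. The DNA-binding partners had smaller folds, with FHL1 at 41.6 and 26.6 FPKM in CR libraries A and B, against 40.9 and 32.9 FPKM in NR libraries A and B (log2 fold -0.14, adjusted p = 0.73), and RAP1 at 72.6 and 39.0 FPKM in CR libraries A and B, against 42.1 and 38.7 FPKM in NR libraries A and B (log2 fold 0.39, adjusted p = 0.39). SFP1, a nutrient-regulated activator, was at 39.4 and 27.4 FPKM in CR libraries A and B, against 27.1 and 22.3 FPKM in NR libraries A and B (log2 fold 0.40, adjusted p = 0.27), and HMO1, a chromatin protein of these promoters, at 852 and 803 FPKM in CR libraries A and B, against 567 and 671 FPKM in NR libraries A and B (log2 fold 0.42, adjusted p = 0.22). Both had CR libraries above NR and did not pass. The kinase genes SCH9 and TOR1 had log2 folds of 0.48 and 0.01. Those of DOT6, TOD6, ABF1 and STB3 were -0.34, -0.71, -0.10 and -0.13. Of the 12 regulators 6 had a negative and 6 a positive fold.

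Of 6 genes for dedicated chaperones and an assembly factor of large subunit proteins 5 fell, beside 13.2% of all rows. The median log2 fold of these 6 genes was -1.83, beside -1.04 for the members, and that difference was not tested. ACL4, for the chaperone of Rpl4, was at 43.6 and 27.1 FPKM in CR libraries A and B, against 155 and 116 FPKM in NR libraries A and B (log2 fold -1.93, SE 0.30, adjusted p = 0.013), and BCP1, for that of Rpl23, at 48.6 and 45.2 FPKM in CR libraries A and B, against 194 and 134 FPKM in NR libraries A and B (log2 fold -1.76, SE 0.25, adjusted p = 0.01). RRB1, for that of Rpl3, was at 65.3 and 32.3 FPKM in CR libraries A and B, against 217 and 118 FPKM in NR libraries A and B (log2 fold -1.78, SE 0.45, adjusted p = 0.037). In all 3 every CR value was below every NR value. SYO1, which brings Rpl5 and Rpl11 into the nucleus together, was at 6.09 and 3.18 FPKM in CR libraries A and B, against 25.8 and 14.2 FPKM in NR libraries A and B (log2 fold -1.89, SE 0.41, adjusted p = 0.025), in a row that overlaps YDL062W. YVH1, a phosphatase gene needed for stalk assembly, was at 34.6 and 15.2 FPKM in CR libraries A and B, against 128 and 85.4 FPKM in NR libraries A and B (log2 fold -2.13, SE 0.43, adjusted p = 0.022). SQT1, for the chaperone of Rpl10, did not pass (20.4 and 12.0 FPKM in CR libraries A and B, against 34.2 and 22.2 FPKM in NR libraries A and B, log2 fold -0.78). For all 6 of these genes the CR values lay below the NR values. Of 7 methyltransferase genes 2 fell, RKM3 (log2 fold -1.39, adjusted p = 0.015) for Rpl42 and RKM1 (log2 fold -0.90, adjusted p = 0.034) for Rpl23. HPM1, which modifies Rpl3, was at 67.7 and 27.5 FPKM in CR libraries A and B, against 105 and 153 FPKM in NR libraries A and B (log2 fold -1.53, adjusted p = 0.058).

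**Figure D5:**
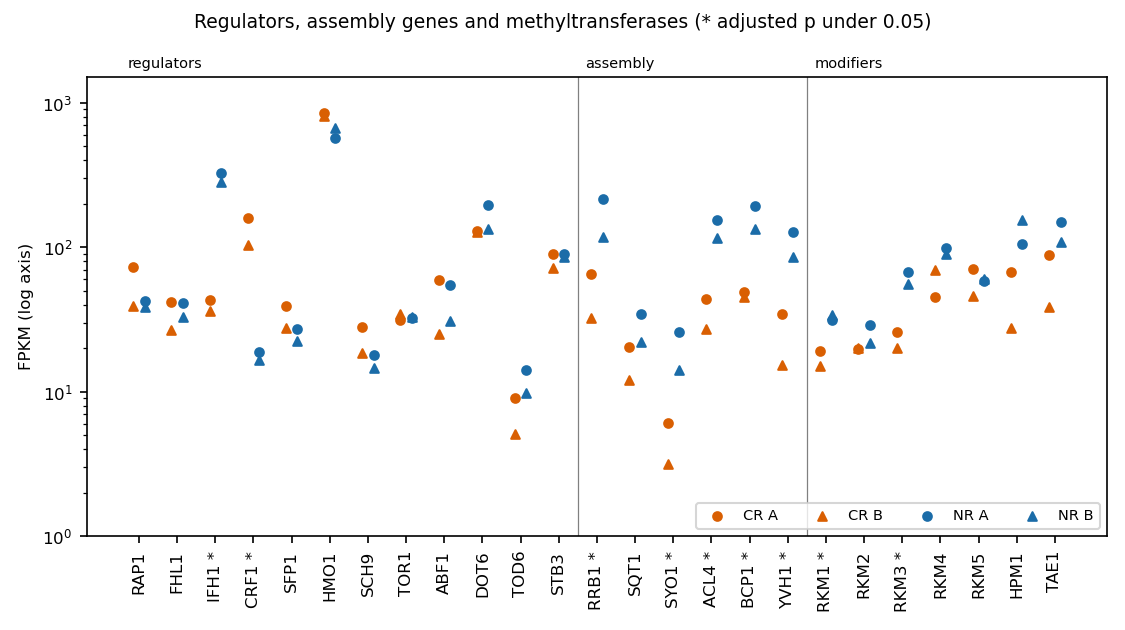
FPKM on a log axis for 12 regulators, 6 chaperone and assembly genes and 7 methyltransferases (modifiers) in each library, with orange for CR, blue for NR, circles for replicate A and triangles for replicate B. Stars mark the 9 genes past the threshold, of which CRF1 is the single one with CR above NR.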

How the data were processed

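The authors deposited 1 table of FPKM with a column per library. Total RNA was fragmented and made into libraries with a small RNA kit, per the labels' protocols. CASAVA 1.8.2, Bowtie and Cufflinks 2.0.2, with the build sacCer2, are named in the submitters' processing notes. All 4 columns were matched by name and 0 were left over. No read totals were used, so the depth is unknown and no intervals were drawn. Of 6025 gene IDs found in RefSeq, 5989 had the R64 position after adding 1 to the start, and positions and sequences are therefore R64. The 6355 gene rows averaging at least 1 FPKM were tested as log2(FPKM + 1) in limma 3.58.1 (R 4.3.3) with an intensity trend. Pair ratios were tested in limma without a trend. Rows without a gene ID, 413 of 7133, were left out. The unique share is that of 32-nt stretches in the coding exons found once on either strand. Copies were aligned with Biopython 1.88. Fits were tested on simulated data with planted changes larger than the members' median fold and the same spread in both groups. These simulations do not show how well folds of the members' size are found. Python 3.11.15, pandas 2.3.3, NumPy 2.4.6, SciPy 1.17.1 and matplotlib 3.10.9 were used.

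The members, lists and tests were chosen with earlier results of these data known. Values in each library are given for the stalk, 5S and centre lists, the 10 lower members with the smallest adjusted p, members with a positive fold, rows away from their gene, the 4 pairs with the lowest unique share, and, among pairs with 50% or more unique stretches at their R64 position, the 4 with the largest ratio change and the 4 with the largest level ratio. Counts cover all members, but values of 1 gene and its pair are not reported here. Other genes were named after their values were seen. The alternatives changed the pseudocount (0.1 or 5), the filter (none or 10 FPKM), the scaling (common median or quantiles), the replicate block, the intensity trend and the libraries used (each left out in turn), and used subsets of rows by position, unique share and overlap. A fit on rows that met all 3 conditions and a share without RPL39, RPL41A and RPL41B were chosen after seeing the data.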

Additional observations from a re-analysis of the deposited data

How the results depend on the processing

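The count of lower members was 15 as reported, 6 with no filter on low values, 30 after scaling to a common median and 24 after quantile normalization. Leaving out a library gave 0 to 76. All 15 were kept under both pseudocounts, both scalings, the 10 FPKM filter and no intensity trend. Fits without a CR library take the spread from the NR pair alone and do not measure stability. The number of pairs with a changed ratio was 6 as reported, 3 with a pseudocount of 0.1, 1 with one of 5, 3 with the 10 FPKM filter, 2 after quantile normalization, 3 on rows at their R64 position, 2 on rows overlapping no other and 0 on rows meeting all 3 conditions, where 7 pairs had an unadjusted p under 0.05. Leaving out a library gave 0 to 21. Subsets of rows leave fewer pairs, with 3 of the 6 called pairs left under all 3 conditions. Otherwise the cause was not tested. The median log2 fold of members ran from -1.42 to -0.46 when a library was left out and stayed negative in every fit. The difference in the members' share of FPKM, -8.20 percentage points as reported, was negative in every alternative, from -10.7 to -5.67 when a library was left out. With stretches of 25 and 50 nt in place of 32, 16 and 12 members were under 50% unique.

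With the replicate letter as a block 18 members were lower, 11 of them among the 15, and 4 pairs changed. The labels do not say whether same-letter libraries were handled together, and the correlation of their deviations was 0.08. Among the genes named by rule, folds changed sign when a library was left out for RPL2A (from -0.89 to 0.64), RPL31A (-0.53 to 0.39), RPL22A (-1.01 to 0.34), RPL6A (-0.73 to 0.28), RPL4A (-0.23 to 0.092), RPL33A (-1.86 to 0.037), RPL38 (-0.57 to 0.85), RPL29 (-1.30 to 0.011) and the RPL41 ratio (-0.32 to 0.97). After scaling to a common median RPL35A was at -0.015, and after quantile normalization RPL35A was at -0.036 and RPL31A at 0.0024. Of these reversed folds only that of RPL38, without CR A, passed, against the spread of the NR pair alone. The 4 libraries, a replicate SD of 0.46 in CR and 0.27 in NR and the lack of read totals limit the precision.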
